A study of Rattus norvegicus with 6 samples.

Results

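The Hedgehog pathway was examined through 9 of its genes, Shh, Ptch1, Hhip, Gas1, Smo, Sufu, Gli1, Gli2 and Gli3. They were taken by their single gene symbol in the array annotation. A probe set is a group of array probes read together as 1 value. Of the 9 genes, 7 had a probe set named for them alone, among 14217 genes with one on the array, and Ptch1 and Gli3 were not analysed here. Smo had 2 probe sets and the other 6 genes had 1. A gene is shown by its brightest probe set, judged by the mean of the 6 arrays, and for Smo the other is given beside it. These mean signals, and earlier knowledge of how the tissues differed, took part in choosing the genes. Their differences between the tissues are therefore given as a description, without p-values.

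The samples came from male Sprague-Dawley rats whose upper first molars had been extracted on both sides at 4 weeks of age. Peri-implant soft tissue was taken around a titanium alloy implant in the left extraction socket, and oral mucosal tissue from the healed right socket without an implant, 4 weeks after surgery. Each group held 3 arrays. The implant tissue came from the left and the mucosa from the right, so the implant and the side of the mouth cannot be told apart. Whether different rats gave the 3 samples of a group is not stated, so the spread between arrays may be technical.

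Hedgehog signalling runs through a relay of inhibitors. A secreted ligand binds the receptor Patched, which then stops holding back Smoothened, and Smoothened relieves the block that Sufu and protein kinase A place on the Gli transcription factors in the primary cilium. Gli1, Ptch1 and Hhip are themselves switched on by the signal, so their transcripts are widely used as a readout of it. In the mouth the ligand Shh is known from epithelium, including tooth germs, palatal rugae and tongue papillae, and the response from the connective tissue cells beneath. Gli1 marks connective tissue cells of the tooth socket and periodontium in mice.

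The factors of the Gli family bind a short DNA motif, and all 4 promoters of pathway genes found to hold the motif, or a near match, are shown here. The motif searched was GACCACCCA, on both strands, in the 250 bases before each gene's start in RefSeq (GRCr8). The exact motif was present in 0.338% of 33469 promoters, and a stretch with at most 1 mismatch in 6.15%. Promoters of 6 of the 9 genes were in the table, those of Ptch1, Gli2, Gli3, Hhip, Smo and Sufu. Of these only that of Ptch1 held the motif, as an exact match on the reverse strand. Among 48 promoters of the other pathway genes described further on, 1 held the exact motif, that of Ulk3, and 3 held it with at most 1 mismatch (6.25%), a share near that of all promoters. Igfbp6, whose values come further on, had 2 stretches with 1 mismatch each, and Runx2, a transcription factor of bone, had 1. The signals of Ulk3, a kinase that acts on Gli proteins, and of Runx2 were not analysed here. In the sequences, capitals mark the matches. They are a description of the letters and not binding sites. The lines run 5′ to 3′ on the strand of the gene, with Ptch1 from chr17:1555369-1555437, Ulk3 from chr8:66888684-66888725, Igfbp6 from chr7:135154719-135154801 and Runx2 from chr9:23664808-23664850, all on the plus strand.
Ptch1: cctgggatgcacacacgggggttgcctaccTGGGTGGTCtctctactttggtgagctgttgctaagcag
Ulk3: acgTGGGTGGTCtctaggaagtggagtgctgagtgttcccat
Igfbp6: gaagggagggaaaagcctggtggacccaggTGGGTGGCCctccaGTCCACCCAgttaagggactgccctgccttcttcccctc
Runx2: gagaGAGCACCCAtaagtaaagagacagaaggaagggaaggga

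Signals are log2 values as deposited. They were scaled so that each array had the same trimmed mean, and array medians lay between 6.62 and 6.78. Signals below 5.90, a value that 40% of all single signals do not reach, are called dim here, and 5.90 is the dim guide. Between 58.3% and 62.4% of the probe sets of an array exceeded it. A probe set entered the test if it averaged more than 5.68, which left out the dimmest 40%. Keratinocyte markers such as Krt5 and Krt14 and the connective tissue markers Col1a1 and Col3a1 were bright on all 6 arrays. Being bright in both tissues, they do not check which label belongs to which tissue.

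In peri-implant soft tissue the signal of Gli1 was lower than in oral mucosal tissue, while Gli2 and Sufu had overlapping signals in the 2 tissues. Smo was slightly lower on its brighter probe set but not on its other one. Shh, Hhip and Gas1 were dim on all 6 arrays, so that their levels could not be compared. Smo, Sufu and Gli2 were above the dim guide on every array, and Gli1 on every mucosal array and 1 peri-implant array.

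Gli1, the transcription factor that the pathway itself induces, had signals of 4.31, 6.36 and 2.55 on the peri-implant arrays, against 7.16, 7.29 and 7.34 on the mucosal arrays. All peri-implant arrays lay below all mucosal arrays, and 2 of the 3 peri-implant arrays lay below the dim guide. Gli1 averaged 4.41 ± 1.90 in peri-implant tissue and 7.26 ± 0.09 in mucosa (SD, n = 3 each). It fell by 2.86 (SE 0.72), with a 95% interval of -4.42 to -1.29. This SE and interval, like those of the other genes, come from limma and not from the SDs above. Limma takes a single variance for both tissues and draws it towards that of probe sets of similar signal. The unequal spread of Gli1 in the tissues is thus not carried into them. On the linear scale the signals were 19.8, 82.0 and 5.87 in peri-implant tissue, against 143, 156 and 162 in mucosa. Groups that did not overlap in this direction were seen in 17.9% of the 10585 genes tested.

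The size of the Gli1 difference depends on how dim values are treated. With values below 5.90 raised to it, Gli1 fell by 1.21, and with a pseudocount of 32 on the linear scale it fell by 1.61. The peri-implant arrays themselves spanned 3.80, against 0.18 for the mucosal arrays. Among 3137 probe sets whose peri-implant mean lay within 0.5 of that of Gli1, the median SD over the 3 arrays was 1.06, and 88.7% had a smaller SD than Gli1. Among 3209 probe sets with a mucosal mean as near to that of Gli1, the median SD was 0.28, and 6.67% had a smaller one. Without peri-implant array 2, the brightest of the 3, Gli1 fell by 3.83. Without peri-implant array 3, the dimmest, it fell by 1.93. The call of Gli1 as lower was lost when limma was run without a variance trend. Gli1 passed the filter on dim probe sets through its mucosal signals, since its mean over all arrays was 5.83 and the filter stood at 5.68.

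**Figure D1:**
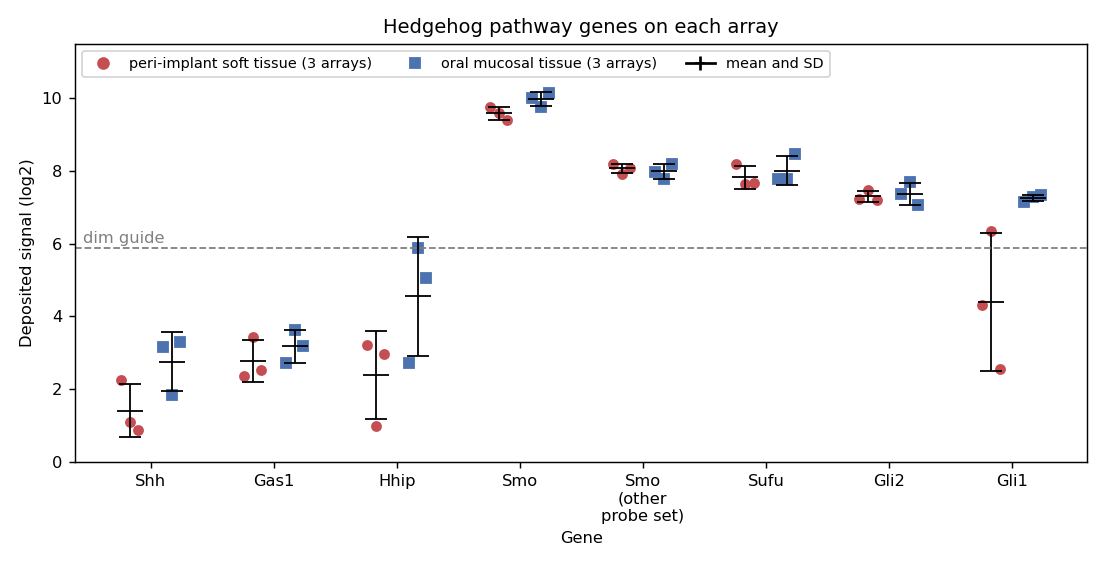
Deposited log2 signal (vertical axis) of each probe set of the 7 measured genes on the 3 peri-implant arrays (circles) and the 3 mucosal arrays (squares), with the mean and SD in black. The dashed line is the dim guide of 5.90. Gli1 is split between the tissues, at 2.55 to 6.36 in peri-implant tissue against 7.16 to 7.34 in mucosa, and Shh, Hhip and Gas1 lie below the line.

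**Figure D2:**
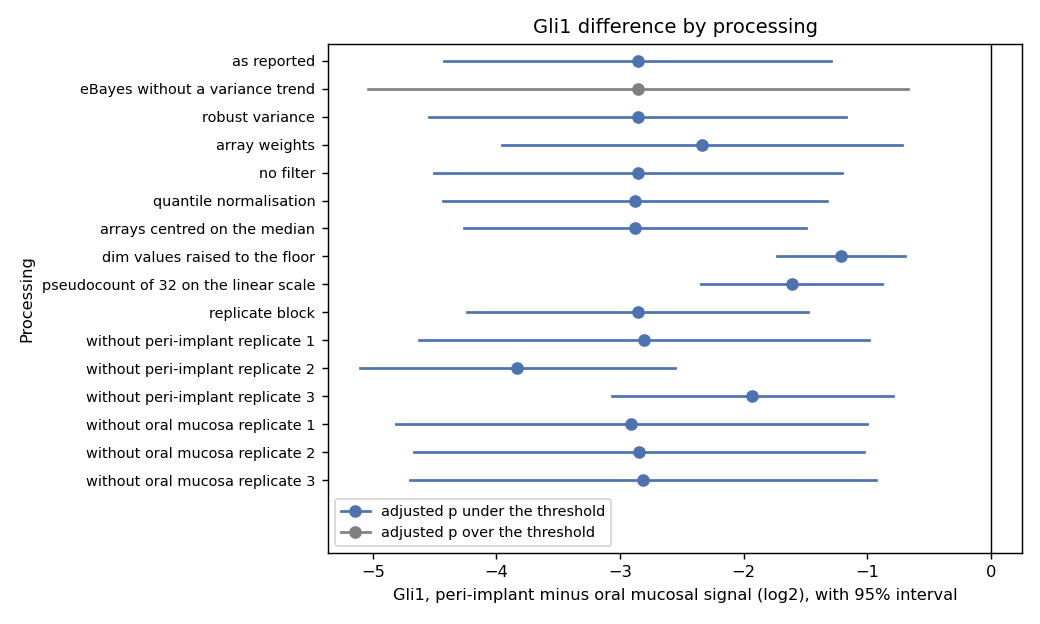
Log2 difference of Gli1 between peri-implant and mucosal tissue (horizontal axis) under each way of processing the data (vertical axis), with 95% intervals from limma. The rows without 1 array keep the probe sets tested with all 6. All values lie below 0, from -3.83 without peri-implant replicate 2 to -1.21 with dim values raised to the guide, and the grey row is the fit without a variance trend.

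Of the 4 genes of the pathway that were tested, Gli1 and Smo passed the threshold of an adjusted p of 0.05 as lower, and 0 as higher. Over all 10585 genes tested, 26.1% passed, 11% as lower and 15.2% as higher. Because the genes were chosen with this contrast known, nothing is read from that count.

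The ligand Shh was at the bottom of the array's range. It had signals of 2.24, 1.10 and 0.88 in peri-implant tissue, against 3.15, 1.83 and 3.30 in mucosa, and the groups overlapped. Its mean over all arrays lay at the 3.53rd percentile of the 31042 probe sets that were not array controls. A dim signal on this array does not show that the transcript was missing.

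Among the proteins that bind the ligand, Gas1, a co-receptor at the cell surface, had signals of 2.36, 3.43 and 2.54 in peri-implant tissue and of 2.71, 3.62 and 3.20 in mucosa. Its groups overlapped, and its mean lay at the 10.3rd percentile. Hhip, a decoy receptor that the pathway induces and that then binds the ligand, had signals of 3.20, 0.99 and 2.96 in peri-implant tissue, against 2.72, 5.89 and 5.06 in mucosa. Mucosal arrays 2 and 3 were the brightest, mucosal array 1 lay within the peri-implant values, and the groups overlapped. All 6 values of Hhip lay below the unrounded dim guide, so that with the guide as a floor no difference was left. None of Shh, Gas1 and Hhip was tested, as their means lay under the filter.

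Smo, the membrane protein that carries the signal inwards, had signals of 9.77, 9.59 and 9.41 in peri-implant tissue, against 10.01, 9.76 and 10.16 in mucosa. Peri-implant array 1 and mucosal array 2 touched, at 9.77 and 9.76, and the other values were separate. The difference was -0.39 (SE 0.12), or 1.31-fold lower. The other probe set of Smo had signals of 8.20, 7.93 and 8.09 in peri-implant tissue, against 7.99, 7.79 and 8.21 in mucosa. Its groups overlapped over their whole range and its difference was 0.08 (SE 0.18). The probe sets of Smo thus differed in sign, and their mean gave a difference of -0.16, which did not pass the threshold. The call of the brighter probe set as lower was lost without the variance trend, with no filter and with the arrays centred on their medians. It was also lost without peri-implant array 2 or 3 or mucosal array 1 or 3.

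Sufu, which holds Gli proteins in the cytoplasm, had signals of 8.20, 7.64 and 7.66 in peri-implant tissue, against 7.78, 7.79 and 8.47 in mucosa. The difference was -0.18 (SE 0.23), with a 95% interval of -0.69 to 0.33. In each tissue 1 array stood above the other two, and the groups overlapped. Gli2, the main activator among the Gli proteins, had signals of 7.24, 7.48 and 7.20 in peri-implant tissue, against 7.36, 7.69 and 7.07 in mucosa. Its difference was -0.07 (SE 0.24), with a 95% interval of -0.59 to 0.45. These intervals reach to both sides of 0, and they do not show that Gli2 or Sufu was equal in the tissues.

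Over the 6 arrays, Pearson's correlation with Gli1 was 0.74 for the brighter probe set of Smo, 0.70 for Gas1 and 0.61 for Shh. It was 0.38 for Gli2, 0.33 for Hhip and 0.22 for Sufu. The other probe set of Smo, whose difference had the opposite sign, was left out. The correlations are descriptions over 6 points that share the difference between the tissues, and the signals of Gas1, Shh and Hhip were dim. The 5 tested genes with the highest correlation with Gli1, out of 10581, were Ntf4, Mon2, Fkbp10, Tmem151a and Rcn3, at 0.996, 0.993, 0.992, 0.985 and 0.983. All 5 were higher on every mucosal array than on any peri-implant array. Their highest peri-implant value was on array 2 and their lowest on array 3, as for Gli1. These traits follow from choosing them by this correlation. Only Tmem151a passed the threshold, and Rcn3 differed by no more than -0.22. Mon2, a protein of membrane traffic, had signals of 6.64, 7.12 and 6.38 in peri-implant tissue, against 7.28, 7.40 and 7.31 in mucosa. Tmem151a, a membrane protein, had signals of 4.41, 5.91 and 3.41 in peri-implant tissue, against 6.85, 6.51 and 7.21 in mucosa. Like Gli1, Tmem151a and Ntf4 passed the filter through their mucosal signals, with means over all arrays of 5.72 and 5.74. In each, 2 of the 3 peri-implant arrays were dim.

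Markers of the cell types in the samples differed between the tissues as well. In bulk tissue, fewer cells of a type and less RNA per cell cannot be told apart. Fibroblast and mesenchyme markers, for the cells that are known to respond to Hedgehog ligands, were lower in 7 of 12 tested, higher in 1 and not past the threshold in 4. Their summed linear signal was 45295 to 46533 in peri-implant tissue, against 69717 to 76795 in mucosa. The brightest were Col3a1, Col1a2 and Lum, with differences of -0.83, -0.75 and -0.86, and the member that rose was Dcn, by 0.34, which did not pass in limma without the variance trend. Leukocyte markers were higher in 8 of 8 tested, with a sum of 29580 to 31402 in peri-implant tissue against 8279 to 8689 in mucosa. Of these, Cd3e was dim on all mucosal arrays. It passed the filter through its peri-implant signals, with a mean over all arrays of 5.69. The part of these markers in the Gli1 difference was not tested.

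Markers of the periodontal ligament and tendon were lower in 3 of 5 tested and higher in 1, with a sum of 5798 to 6024 in peri-implant tissue against 11344 to 11583 in mucosa. Schwann cell markers were lower in 2 of 3 tested and higher in 0, with a sum of 986 to 1249 against 3715 to 3905 in mucosa. The brightest was Pmp22, which other cells also express and which fell by 2.54, and the Schwann cell factor Sox10 was dim on all 6 arrays. Of 9 keratinocyte markers 3 rose and 3 fell, and their sums overlapped, at 227405 to 303652 in peri-implant tissue and 237555 to 318389 in mucosa. Of 7 endothelial markers tested 1 rose and 0 fell, and of 6 smooth muscle and pericyte markers 2 rose and 1 fell. Of 2 osteoblast markers tested 1 rose and 1 fell, Alpl by 1.92 and Ibsp by 1.49. Alpl was dim on 2 of the mucosal arrays and passed the filter through its peri-implant signals. With dim values raised to the guide it rose by 1.27. Bglap, an osteoblast marker whose mean was too dim to test, had signals of 7.16, 6.97 and 6.75 in peri-implant tissue. Its mucosal signals were 4.49, 1.61 and 2.05, all dim. With dim values raised to the guide its difference was 1.06, and it too is named after its values were seen. The 1 salivary gland marker tested fell. Of 7 skeletal muscle markers measured 2 were tested and 1 rose, Mb, the muscle myoglobin. It stood at 8.44, 8.30 and 8.31 in peri-implant tissue against 3.19, 3.74 and 5.82 in mucosa. Mb was dim on all mucosal arrays and passed the filter through its peri-implant signals. With dim values raised to the guide its difference was 2.45. Over the 7 the median difference was -0.56. Acta1, the muscle actin, was too dim to test, at 2.52, 1.55 and 4.53 in peri-implant tissue against 6.90, 6.97 and 6.93 in mucosa. It was thus dim on all peri-implant arrays and above the guide on all mucosal ones, with a difference of -1.04 when dim values were raised to the guide, and it is named after its values were seen. None of the 3 tooth epithelium and dentine markers measured was bright enough to be tested. Over the 11 lists 18 of the 55 markers tested rose and 18 fell, where 15.2% of all genes tested rose and 11% fell. Those that rose include Cd3e, Mb and Alpl, which passed the filter through their peri-implant signals. Of the 74 measured, 0 had a value of 0 on any array.

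**Figure D3:**
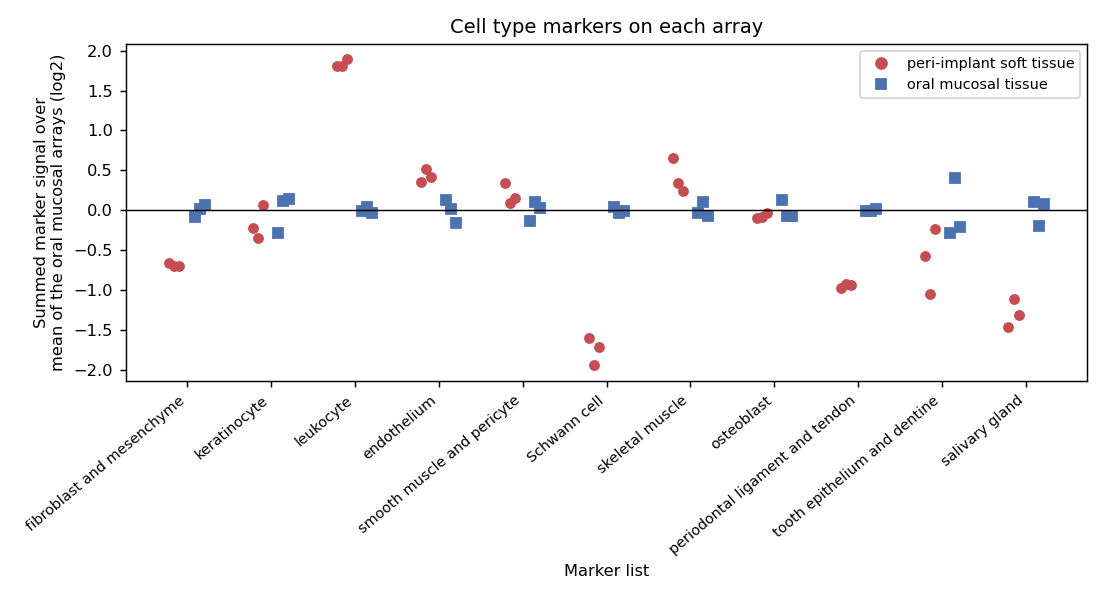
Summed linear signal of each marker list on each array, divided by the mean of the mucosal arrays and shown on a log2 scale (vertical axis), with 3 peri-implant arrays (circles) and 3 mucosal arrays (squares) for each list (horizontal axis). The leukocyte, endothelial and skeletal muscle sums are higher in peri-implant tissue on all arrays, the fibroblast, Schwann cell, periodontal ligament and salivary gland sums lower, and the keratinocyte, osteoblast, smooth muscle and tooth sums overlap. The skeletal muscle sum does not stand for its list. Mb was its brightest marker on every peri-implant array, and the median difference of its 7 markers was -0.56.

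Beyond these genes, other genes of the pathway moved in both directions. A list of 66 further pathway genes in 5 roles had 53 with a probe set, of which 42 were tested and 11 were too dim. Of the 42, 5 were higher in peri-implant tissue (11.9%), 7 lower (16.7%) and 30 did not pass. The 28.6% that passed is near the 26.1% of all genes. The median difference of the 42 was 0.04 and that of all genes tested 0.03. In limma without the variance trend, 1 of the 12 calls was left as higher, Sfrp1, and 4 as lower, Gpc3, Igfbp6, Bmp2 and Ccnd2. This list was also chosen with earlier results of these data known. Genes past the threshold by at least 0.5 were named because they passed. The adjusted p-values given for the named genes thus describe the fit and are no evidence for those genes.

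Among ligands and the proteins that release or hold them, 1 of 2 tested fell and 4 were too dim to test. Gpc3, a cell surface glypican that binds Hedgehog ligands, had signals of 8.35, 8.49 and 8.78 in peri-implant tissue, against 9.79, 9.77 and 9.61 in mucosa. The groups were apart, and it fell by 1.18 (SE 0.13, limma adjusted p = 2.29e-05). Its second probe set was too dim to test and ran the other way, by 0.70, so that the mean of both fell by 0.24 and did not pass (limma adjusted p = 0.842, within 5.55e-06 to 0.842 over its alternatives). Gpc4, another glypican, had a difference of 0.18 (SE 0.12) and did not pass (limma adjusted p = 0.320). The ligand Ihh was too dim to test, at 5.54, 5.06 and 4.89 in peri-implant tissue and 6.10, 6.48 and 5.51 in mucosa, with overlapping groups.

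Boc, a co-receptor that binds the ligand together with Patched, had signals of 9.87, 9.86 and 9.80 in peri-implant tissue, against 9.56, 9.28 and 9.47 in mucosa. All peri-implant arrays lay above all mucosal ones, as they did for 24% of all genes tested, and it rose by 0.41 (SE 0.10, limma adjusted p = 0.0113). With the arrays centred on their medians Boc no longer passed (limma adjusted p = 0.0520, within 0.00995 to 0.0534 over its alternatives). Lrp2, an endocytic receptor that takes up the ligand, overlapped between the tissues and had a difference of 0.20 (SE 0.34, limma adjusted p = 0.726). Of the list for co-receptors, 1 of 2 tested thus rose and 1 was too dim to test.

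Genes of the cilium and of transduction were higher in 1 of 10 tested, lower in 0, and did not pass in 9. Ift172, a subunit of the transport machinery inside the cilium, had signals of 8.28, 8.77 and 8.66 in peri-implant tissue, against 8.25, 7.98 and 7.53 in mucosa. It rose by 0.65 (SE 0.21, limma adjusted p = 0.0387). In 7 of 16 alternatives it no longer passed, with limma's adjusted p between 0.0196 and 0.156 over all of them. Among these were the fits without array 2 or 3 of either tissue. Kif3a, a motor of the same transport, and Tulp3, a ciliary trafficking protein, had differences of 0.25 and -0.09 and did not pass (limma adjusted p = 0.246 and 0.723).

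Among genes for the phosphorylation and turnover of Gli proteins, 2 of 14 fell, 1 rose and 11 did not pass. Csnk1a1, the casein kinase that acts on Gli proteins together with protein kinase A, stood at 13.61, 13.57 and 13.63 in peri-implant tissue, against 13.90, 13.92 and 13.90 in mucosa. It fell by 0.31 (SE 0.07, limma adjusted p = 0.00799) between groups that were apart. Without peri-implant array 2 it did not pass (limma adjusted p = 0.0541, within 0.0044 to 0.0563 over its alternatives). Of its dimmer probe sets, 1 fell by 0.43 (limma adjusted p = 0.00149). The others, with differences of -0.77 and -0.42, did not pass (limma adjusted p = 0.0688 and 0.445). Kctd11, an adaptor known to lower Hedgehog signalling in mouse and human cells, fell by 0.53 (SE 0.15, limma adjusted p = 0.0186). It no longer passed in 3 of 16 alternatives, which included those without array 1 of either tissue, and limma's adjusted p was 0.0103 to 0.0891 over all. Fbxw11, a substrate receptor of the ubiquitin ligase that acts on Gli proteins, rose by 0.28 (SE 0.09, limma adjusted p = 0.0364). Fbxw11 did not pass in 7 of 16 alternatives, among them those without peri-implant array 1 or 2 or mucosal array 2 or 3, and it is named after its values were seen. Cul3, the scaffold of another such ligase, had a difference of -0.04 (SE 0.07, limma adjusted p = 0.767).

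Known response genes were lower in 4 of 14 tested, higher in 2, not past the threshold in 8, and too dim to test in 5. Over all genes tested 11% were lower and 15.2% higher, and the difference from these shares was not tested. Igfbp6, which encodes a binding protein for insulin-like growth factor 2, had signals of 7.70, 7.61 and 7.65 in peri-implant tissue, against 9.11, 9.36 and 8.94 in mucosa. The groups did not overlap, as in this direction for 17.9% of all genes tested, and it fell by 1.49 (SE 0.16, limma adjusted p = 1.34e-05). On its second probe set, at 6.66, 6.61 and 6.41 in peri-implant tissue against 8.84, 8.90 and 9.52 in mucosa, it fell by 2.53 (SE 0.22, limma adjusted p = 2.19e-06). The promoter letters of Igfbp6 are printed above. Stretches with at most 1 mismatch were present in 6.15% of all promoters, and their part in this difference was not tested.

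Bmp2, a bone morphogenetic protein, had signals of 10.03, 10.26 and 10.16 in peri-implant tissue, against 10.80, 10.88 and 10.85 in mucosa. It fell by 0.69 (SE 0.08, limma adjusted p = 5.30e-05), and by 1.07 on its second probe set. Ccnd2 and Ccnd1 encode cyclins that drive entry into the cell cycle. Ccnd2 fell by 0.49 (SE 0.08, limma adjusted p = 6.71e-04) and Ccnd1 by 0.34 (SE 0.09, limma adjusted p = 0.0136). Of the other probe sets of Ccnd1, one fell by 0.52 (limma adjusted p = 0.00319) and one, with a difference of -0.21, did not pass (limma adjusted p = 0.240). The brightest probe set of Ccnd1 did not pass without peri-implant array 1 or 2 or mucosal array 1.

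Both response genes that rose, Sfrp1 and Wnt5a, are known from Wnt signalling. Sfrp1, a secreted Wnt antagonist, had signals of 9.95, 9.76 and 9.68 in peri-implant tissue, against 8.52, 8.58 and 8.73 in mucosa. It rose by 1.19 (SE 0.12, limma adjusted p = 8.27e-06) between groups that were apart. Its dimmer probe sets differed by 0.24 and 0.74, and with the mean of all 3 the difference of 0.72 did not pass (limma adjusted p = 0.184, within 2.32e-06 to 0.184 over its alternatives). Wnt5a, a Wnt ligand of connective tissue, had signals of 9.61, 8.77 and 8.90 in peri-implant tissue, against 8.34, 8.58 and 8.19 in mucosa. It rose by 0.72 (SE 0.20, limma adjusted p = 0.0197), with peri-implant array 1 the brightest. It no longer passed in 4 of 16 alternatives, over which limma's adjusted p was 0.00839 to 0.104. Among them were those without mucosal array 1 or 3 and that without peri-implant array 1, where the difference was 0.47.

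**Figure D4:**
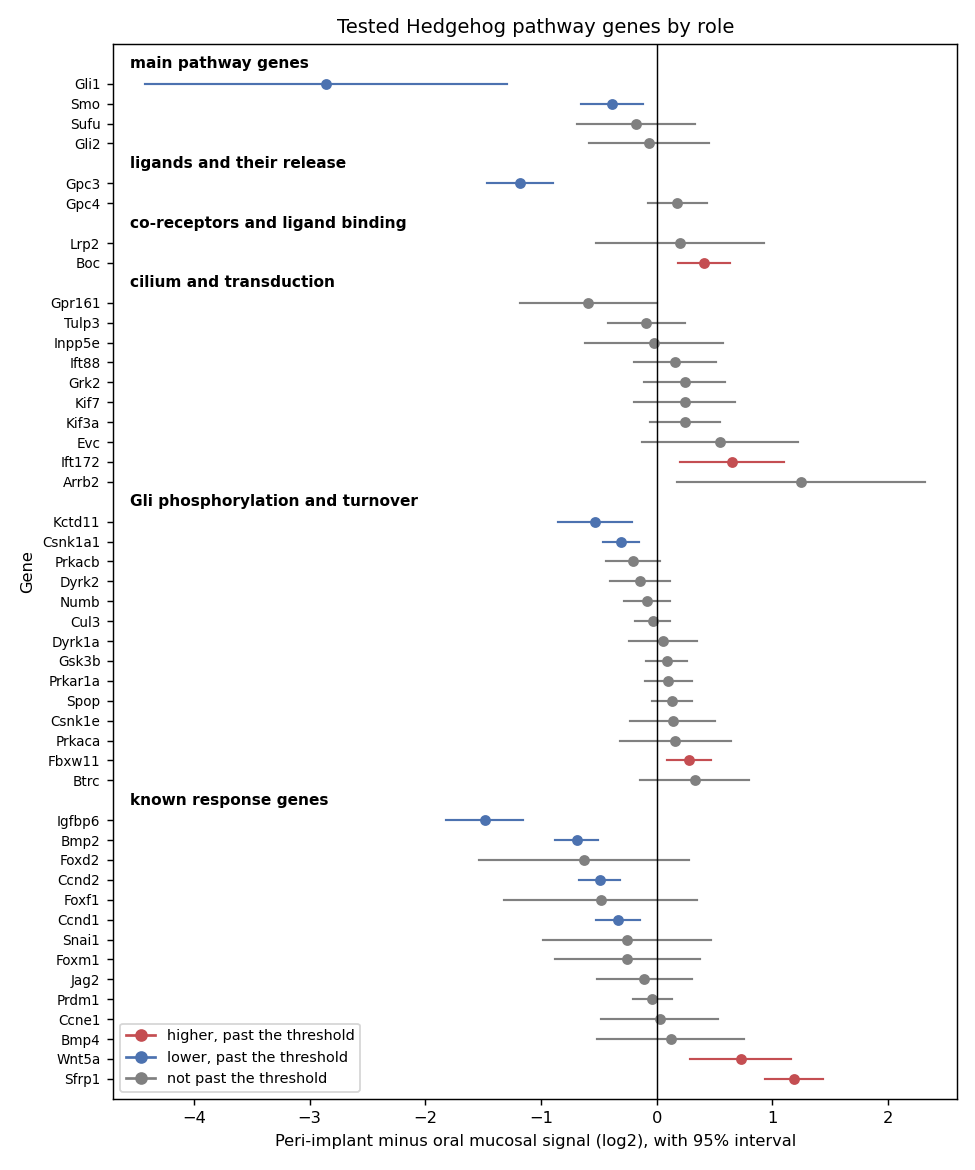
Log2 signal in peri-implant tissue minus that in mucosa (horizontal axis), with 95% intervals from limma, of the tested pathway genes (vertical axis) grouped by role. Red marks genes past the threshold as higher, blue as lower, and grey those that did not pass. Apart from Gli1, the blue and red genes reach from Igfbp6, at -1.49, to Sfrp1, at 1.19, and most others lie around 0.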

How the data were processed

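RNA of each sample was labelled with biotin using an Affymetrix 3′ IVT kit and hybridised to 1 array, per the labels' protocols. The deposited values are log2 signals that the authors scaled per array, as read from the values: once made linear, all 6 arrays had equal means after the highest and lowest 2% were dropped. The sources used here do not give the software or the background correction. The array limits precision through its 3 replicates per tissue.

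Of 31099 probe sets, 57 array controls were left out, and 18625 above the filter were tested with limma 3.58.1 in R 4.3.3 (lmFit, eBayes with a variance trend, two-sided), adjusted over all of them by the Benjamini-Hochberg method. In all, 22.5% passed. Differences are peri-implant minus mucosal. The fit was tested on simulated data. The fit treated the samples as unpaired. Deviations from the group means correlated at 0.013, -0.079 and 0.027 between same-numbered arrays. Such weak correlations do not settle whether same-numbered samples came from the same rat.

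The pathway genes and all lists were chosen with earlier results of these data known. Named genes were the 9 pathway genes, other pathway genes past the threshold by at least 0.5, the 2 brightest others of each role, the 5 genes most like Gli1 and bright markers. Ptch1 and Gli3 were not analysed here. Symbols came from GEO's platform annotation, which named 1 gene for 20826 probe sets, several for 436 and none for 9780.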

Additional observations from a re-analysis of the deposited data

How the results depend on the processing

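The Gli1 difference kept its direction in all alternatives and additions in which it was tested, between -3.83 and -1.21. It did not pass without the variance trend, at an unchanged -2.86, and leaving out 1 array gave -3.83 to -1.93. Gli1 could not be tested with the filter at the 60th percentile or, under the planned filter, without a mucosal array, since its mean then fell below the filter. With the tested probe sets kept, an alternative chosen after seeing the data, leaving out 1 mucosal array gave -2.91 to -2.82. This keeps a probe set that entered through its mucosal signals and is no support for the call. Counts of pathway genes that fell (2 as reported) were 0 without the variance trend and 1 with no filter, the filter at the 60th percentile, median centring or the mean of a gene's probe sets, and 0 to 2 without 1 array. Without mucosal array 1 or 3 it was 0. Smo reversed on its other probe set (0.078). Without 1 array Gli2 ranged from -0.22 to 0.091 and Sufu from -0.36 to 0.046, each turning positive without 1 mucosal array (2 for Gli2, 3 for Sufu) and never past the threshold. Likewise Lrp2 ranged from -0.0018 to 0.40 without 1 array, turning without mucosal array 2, and Cul3 reversed under quantile normalisation (0.028). Of the other pathway genes, those that rose numbered 1 without the variance trend, 3 with no filter, median centring or the mean of probe sets, and 2 to 4 without 1 array. Those that fell numbered 4 without the variance trend and 5 to 8 without 1 array. Over all probe sets, 1287 fell without the variance trend. The cause was not tested. With the replicate number as a block, Gli1 stood at -2.86 and passed, 6 other pathway genes rose and 7 fell, and the call changed for 0 of 31 tested genes that are named.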
